A study of Mus musculus with 16 samples.

Results

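The data described here compare the livers of mice on a high-fat diet with the livers of mice on a control diet, both given vehicle, and cover 8 of the 16 mice of the series. The members were chosen by their labels alone: the 4 mice labelled HFD + Vehicle (HFD_vehicle) and the 4 labelled CD + Vehicle (CD_vehicle). All were C57BL/6 mice aged 29 to 30 weeks. They ate a high-fat diet (HFD) or a control diet (CD) for 16 weeks, meant to give fatty or normal livers, and vehicle without perfluorooctanoic acid (PFOA) was given for a further 8 weeks. The 8 other mice, CD_PFOA and HFD_PFOA, had the same diets and times with PFOA in place of vehicle. They enter here the count filter, the scaling factors, the shared estimate of spread and the comparisons with PFOA mice given at the end. The sources used here do not give the sex of the mice, the composition of the diets or the nature of the vehicle. RNA of whole frozen liver was sequenced, so no liver fat, histology or single cell was measured.

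In diet-induced fatty liver, hepatocytes take up and store more triglyceride in lipid droplets, which are coated by perilipins and by the CIDE proteins that fuse droplets into larger ones. Dietary sterol and fat feed back on the transcription factors SREBP2 and SREBP1c, which drive cholesterol and fatty acid synthesis. As the disease goes on, macrophages that load lipid and express Trem2 and Gpnmb gather in the tissue, and stellate cells lay down collagen. These are statements of background, and the measurements follow.

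In this comparison 2 control mice stood apart from the other members of their group, and each result below is given with this in view. The 8 libraries held 14456524 to 25778125 counts and mitochondrial shares of 9.79% to 13.6%. On the first principal component of the 8 vehicle libraries, with 34.8% of the variance, CD_vehicle 1 to 4 lay at −34.4, −70.1, −49.2 and 8.34 and the HFD_vehicle mice at 27.8 to 42.4. CD_vehicle 4 therefore lay nearest to the high-fat mice, and it had the highest score on the second component (14.5% of the variance), 62.1 against −31.46 to 13.32 in the other mice. It was the highest control mouse in 14 of 14 B and plasma cell markers and in 19 of 21 cholesterol synthesis genes. CD_vehicle 1 was the highest control mouse in 21 of 22 acute phase genes and in 21 of 22 genes of the unfolded protein response, and the lowest in 17 of the cholesterol synthesis genes. Hepatocyte markers defined the tissue in every library, with albumin (Alb) at 69419, 105050.0, 101640.0 and 104870.0 CPM (counts in a library scaled to 1e+06) in the control mice and 58551, 58786, 70767 and 61896 in the high-fat mice. Markers of exocrine pancreas and skeletal muscle were nearly absent, with 1 of 13 and 1 of 12 expressed enough to be tested. Of 11 adipocyte markers 6 were tested, of which 2 rose (Cidea and Fabp4) and 1 fell (Pnpla3), genes that the lists of lipid metabolism also hold. The adipocyte marker Adipoq and the leptin gene were not among the genes expressed enough to be tested. The part of fat cells in the results was not tested.

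Under vehicle, 779 genes were higher and 782 lower on the high-fat diet, of 14998 tested (edgeR quasi-likelihood test, Benjamini-Hochberg adjusted p under 0.05). These are 5.19% of the tested genes called higher and 5.21% called lower, the background for every count of members below. The rises were larger than the falls: 382 of the rises and 128 of the falls were at least 2-fold. CPM of the 2 groups did not overlap for 14.5% of all tested genes, and for 634 of the called rises and 591 of the called falls. Without CD_vehicle 1 the test called 743 and 811 genes, and without CD_vehicle 4 1231 and 1057. The counts were 494 and 474 without CD_vehicle 3, 514 and 446 without HFD_vehicle 2, and 454 and 444 without HFD_vehicle 4. Of the 779 and 782 calls, 588 and 652 were called in the same direction without CD_vehicle 1, and 734 and 722 without CD_vehicle 4. How the libraries are scaled sets the balance of the directions. With library totals in place of TMM factors (trimmed mean of M values), the median of all genes moved by 0.22 on the log2 scale, from −0.03 to 0.19, and the split became 2052 higher and 288 lower. TMM factors were 0.886 to 0.966 in the control and 1.039 to 1.097 in the high-fat libraries, so small changes, above all small falls, are relative to this scaling.

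**Figure D1:**
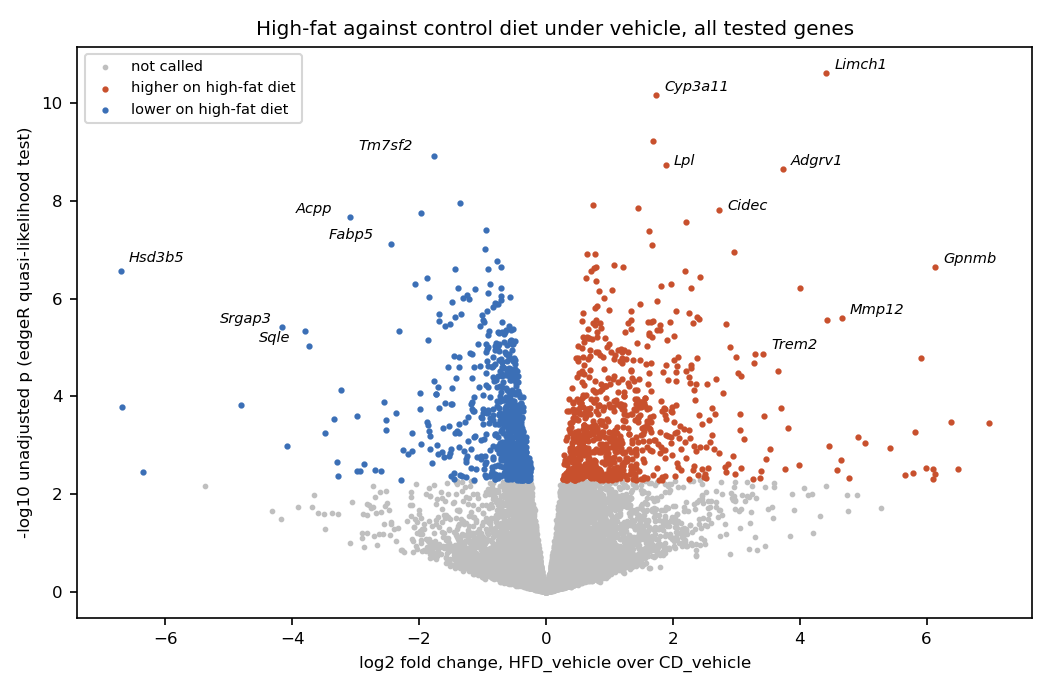
Each point is 1 of the 14998 tested genes, with the log2 fold change of HFD_vehicle over CD_vehicle on the x axis and −log10 of the unadjusted p of the edgeR test on the y axis. Called genes are coloured, 779 higher and 782 lower, and the points on the right reach further from 0 than most on the left, apart from Hsd3b5.

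Genes of lipid storage rose selectively. Of 18 tested genes of the droplet coat and of lipolysis, 4 rose and 2 fell, with a median log2 fold change of 0.20 beside −0.03 for all genes. No fall was called without CD_vehicle 3, HFD_vehicle 2 or HFD_vehicle 3, and with library totals as the scaling 8 rose and none fell. Cidec (ENSMUSG00000030278.11, chr6:113424634-113435760, minus strand; GRCm38 here and below), which fuses droplets at their contact sites, was at 23.4, 5.22, 15.1 and 28.6 CPM in CD_vehicle 1 to 4 and at 125, 132, 96.7 and 126 in HFD_vehicle 1 to 4, an order kept for every list of values below. All 4 high-fat mice lay far above the highest control mouse. The log2 fold change was 2.73 ± 0.29 (SE; edgeR adjusted p = 2.36e-05). Plin4, a perilipin of nascent droplets, was at 35.7, 10.9, 10.96 and 18.6 CPM in the control and 75.3, 84.0, 70.6 and 85.6 in the high-fat mice. The high-fat mice were close together and the control mice were spread, with CD_vehicle 1 the highest of them (log2 fold change 2.05 ± 0.30, edgeR adjusted p = 0.000384). Cidea, a relative of Cidec, was at 21.0, 6.96, 14.8 and 37.2 and 100.2, 64.7, 43.8 and 36.9 CPM. Here CD_vehicle 4 reached the lowest high-fat mouse, so the groups touched, although the gene was called (log2 fold change 1.62 ± 0.38, edgeR adjusted p = 0.0103). Plin5, which ties droplets to mitochondria, had a smaller change of 0.48 ± 0.12 (edgeR adjusted p = 0.0147), and its call was lost without HFD_vehicle 3 (adjusted p = 0.0549) or HFD_vehicle 4 (adjusted p = 0.0646). Plin2, the most general droplet coat protein of hepatocytes, was at 796, 547, 597 and 597 and 817, 723, 617 and 748 CPM, and the test did not call it (0.20 ± 0.12, edgeR adjusted p = 0.366).

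**Figure D2:**
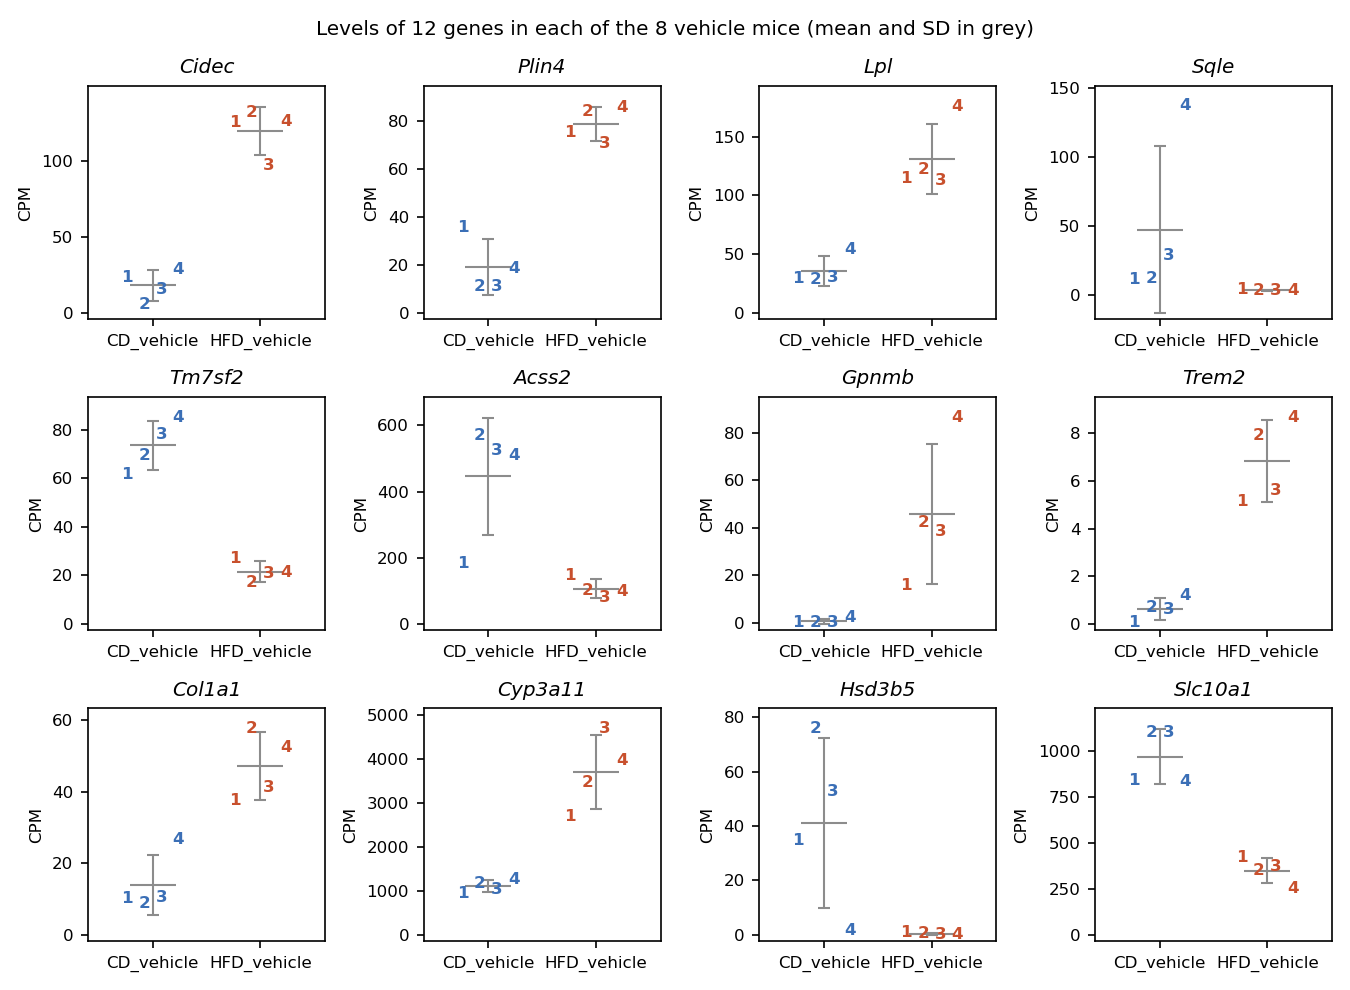
CPM of 12 genes in each vehicle mouse, with digits marking the mouse number, blue for CD_vehicle and red for HFD_vehicle, and grey marks for the mean and SD of the 4 mice. The panels are selected examples, all of genes whose groups did not overlap, which held for 14.5% of all tested genes. Other called genes, such as Cidea and Acly, did overlap and are not shown. CD_vehicle 4 sits above the other control mice for Lpl, Sqle, Gpnmb and Col1a1 and near the high-fat mice for Hsd3b5.

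Uptake genes changed in both directions, with fewer falls when library totals set the scale. Of 18 genes of fatty acid uptake and binding, 4 rose (Lpl, Fabp4, Pparg and Cd36) and 5 fell. With library totals the counts were 5 higher and 1 lower. Lpl (ENSMUSG00000015568.16, chr8:68880491-68907448, plus strand), the lipase that frees fatty acids from circulating lipoproteins and is low in normal adult liver, was at 29.1, 28.4, 30.1 and 54.2 CPM in the control and 115, 122, 112 and 176 in the high-fat mice. CD_vehicle 4 and HFD_vehicle 4 were each the highest of their group, and the groups did not overlap (log2 fold change 1.89 ± 0.18, edgeR adjusted p = 5.45e-06). Cd36, a fatty acid translocase, rose from 232.99 ± 57.5 to 341 ± 22.7 CPM (mean ± SD, n = 4; edgeR adjusted p = 0.0131). Pparg, the receptor that drives fat storage genes, rose from 17.7 ± 3.81 to 27.4 ± 2.83 CPM (edgeR adjusted p = 0.0124), and Fabp4, a fatty acid carrier of adipocytes and macrophages, from 12.98 ± 5.83 to 26.9 ± 2.25 (edgeR adjusted p = 0.00558). Fabp5 (ENSMUSG00000027533.10), another carrier, went the other way, from 20.8, 17.0, 11.8 and 26.7 to 4.21, 1.89, 3.93 and 3.91 CPM. The lowest control mouse was well above the highest high-fat mouse (log2 fold change −2.44 ± 0.29, edgeR adjusted p = 7.06e-05). Triglyceride synthesis had few calls, with 1 of 16 genes called higher and 3 lower and a median of −0.04. Library totals turned this to 4 higher and none lower (median 0.18), and 2 rose without CD_vehicle 1 or CD_vehicle 4. The rise was in Gpat3 (0.96 ± 0.16, edgeR adjusted p = 0.000947), an acyltransferase of the first step, and Dgat2, which adds the last fatty acid, fell (−0.48 ± 0.11, edgeR adjusted p = 0.00933).

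Cholesterol synthesis was the list with the highest share of falls. Of its 21 tested genes, 19 fell and none rose, with a median log2 fold change of −1.35, and 2 were not called, among them Ggps1 of a side branch (named after its values were seen). Each fit that left out 1 vehicle mouse called 18 to 19 of the 21 lower. CD_vehicle 4 raised the control mean: the median was −0.997 without it and −1.52 without CD_vehicle 1. The pathway is controlled by SREBP2, which binds sterol response elements next to CCAAT boxes bound by NF-Y. Below are 300-base promoter windows of 3 genes of the list (250 bases before to 50 after the start, RefSeq, GRCm38.p6), shown because members moved together. Capitals mark each match to the CCAAT box, CCAAT or its reverse complement ATTGG, and to the sterol response element core, TCACNCCAC, on either strand.
Hmgcs1 (chr13:119690101-119690400, plus strand): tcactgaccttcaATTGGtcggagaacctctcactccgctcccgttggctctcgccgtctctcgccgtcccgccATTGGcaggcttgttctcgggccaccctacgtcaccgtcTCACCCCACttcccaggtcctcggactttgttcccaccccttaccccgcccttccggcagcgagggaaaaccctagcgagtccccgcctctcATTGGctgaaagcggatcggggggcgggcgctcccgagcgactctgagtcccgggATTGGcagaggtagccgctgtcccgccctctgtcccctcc
Mvd (chr8:122443373-122443672, minus strand): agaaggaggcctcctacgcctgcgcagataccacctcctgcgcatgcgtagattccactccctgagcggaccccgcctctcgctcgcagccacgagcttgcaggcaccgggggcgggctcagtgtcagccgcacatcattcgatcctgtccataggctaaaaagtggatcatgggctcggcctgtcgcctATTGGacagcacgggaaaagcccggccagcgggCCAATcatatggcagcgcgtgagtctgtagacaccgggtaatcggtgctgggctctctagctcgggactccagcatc
Tm7sf2 (chr19:6067801-6068100, minus strand): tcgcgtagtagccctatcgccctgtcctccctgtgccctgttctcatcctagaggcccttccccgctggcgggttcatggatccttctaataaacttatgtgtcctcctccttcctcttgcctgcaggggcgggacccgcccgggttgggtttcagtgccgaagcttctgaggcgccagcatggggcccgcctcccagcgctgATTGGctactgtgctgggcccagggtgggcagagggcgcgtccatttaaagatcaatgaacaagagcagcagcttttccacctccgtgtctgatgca
Hmgcs1 and Mvd act before squalene and Tm7sf2 after it, and Hmgcs1 was the 1 gene of the list with a match to the sterol response element core. A CCAAT box was found in 15 of the 16 list genes with a window (93.8%), against 42.6% of the 10871 tested genes with a window and 41.1% of all 27025 RefSeq genes. The share was also high in lists that moved less: 84.2% (16 of 19) for the unfolded protein response, of which no gene was called, and 72.2% (13 of 18) for fatty acid synthesis. The sterol response element core was found in 1 of 16, against 1.49% of tested genes, and the E-box CACGTG in 3 of 16 (18.8%), against 11.3%. These counts describe letters in the windows, and no binding was measured.

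By step, the falls ran from the start of the pathway to its end. Hmgcs1, which makes HMG-CoA, was at 139.7, 334, 347 and 521 CPM in the control and 182, 145, 162 and 172 in the high-fat mice. CD_vehicle 1 lay below every high-fat mouse and the other control mice above them (log2 fold change −1.02 ± 0.23, edgeR adjusted p = 0.00718). Pmvk, the second kinase of the mevalonate branch, had 24.7, 49.6, 56.9 and 58.7 and 22.2, 16.9, 15.99 and 17.0 CPM, with no overlap (log2 fold change −1.39 ± 0.19, edgeR adjusted p = 0.000205). Sqle (ENSMUSG00000022351.14, chr15:59315077-59331192, plus strand), the epoxidase that makes the first oxygenated sterol precursor, showed the largest fall of the list. It was at 11.6, 12.1, 28.7 and 137 CPM in the control and 4.17, 3.32, 3.40 and 3.29 in the high-fat mice. The high-fat mice were close together, and the control mice were widely spread, CD_vehicle 4 being far the highest. The log2 fold change of Sqle was −3.74 ± 0.63 (edgeR adjusted p = 0.00092) with all mice and −2.29 (adjusted p = 0.000107) without CD_vehicle 4. Cyp51, the lanosterol demethylase, was at 74.2, 122, 136 and 278 and 50.2, 44.7, 44.0 and 49.8 CPM, and all 4 high-fat mice were below every control mouse (log2 fold change −1.69 ± 0.25, and −1.23 without CD_vehicle 4). Tm7sf2 (ENSMUSG00000024799.14), a sterol reductase, was at 61.6, 69.5, 77.9 and 84.9 and 27.1, 16.9, 20.9 and 21.2 CPM. CD_vehicle 1 was again the lowest and CD_vehicle 4 the highest control mouse, but all 4 lay far above the high-fat mice (log2 fold change −1.77 ± 0.16, edgeR adjusted p = 4.54e-06).

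The regulators around SREBP2 moved in part. Of 8 tested genes of SREBP2 regulation and LDL uptake, 4 fell and none rose. The falls included Scap, the escort protein of SREBP (−0.87 ± 0.12, edgeR adjusted p = 0.000188), Insig1, which holds Scap in the endoplasmic reticulum (−0.78 ± 0.13, 0.000852) and the sterol carrier Stard4 (−1.21 ± 0.17, 0.00028). Of 14 genes of efflux and storage, 1 rose and 3 fell, with 3 rises without CD_vehicle 2 or CD_vehicle 4, and 6 rises and 1 fall with library totals. The rise was in Abcg1, a sterol exporter strong in macrophages, at 5.71, 5.59, 5.90 and 7.18 and 14.8, 16.3, 20.5 and 23.4 CPM. Its groups were far apart (log2 fold change 1.62 ± 0.19, edgeR adjusted p = 4.18e-05).

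Most genes of fatty acid synthesis fell, but not those of the main desaturase and the main regulator. Of 23 tested genes, 13 fell and 1 rose (Scd2, named after its value was seen, 1.55 ± 0.37), with a median of −0.62. The count of falls depended on single mice and on the scaling: it was 16 without CD_vehicle 1, 6 to 8 without CD_vehicle 2, CD_vehicle 3, HFD_vehicle 2, HFD_vehicle 3 or HFD_vehicle 4, and 6 with library totals. Acss2 (ENSMUSG00000027605.18), which makes acetyl-CoA from acetate, was at 183, 569, 524 and 509 CPM in the control and 146, 101, 80.5 and 98.8 in the high-fat mice. CD_vehicle 1 was well below the other control mice but still above all high-fat mice (log2 fold change −2.07 ± 0.28, edgeR adjusted p = 0.000188). Acly, which makes acetyl-CoA from citrate, was at 304, 1242, 1542 and 1314 and 410.4, 304, 327 and 306 CPM. CD_vehicle 1 lay within the high-fat range, and the other control mice were all above it (log2 fold change −1.71 ± 0.34, edgeR adjusted p = 0.00303). Pnpla3, a droplet lipase gene regulated with lipogenesis, was at 7.13, 41.4, 81.0 and 74.2 and 9.96, 8.37, 9.13 and 7.32 CPM, with CD_vehicle 1 just below the high-fat mice and the other control mice far above them (log2 fold change −2.55 ± 0.53, edgeR adjusted p = 0.00483). Acacb, the acetyl-CoA carboxylase at mitochondria (−1.204 ± 0.21, edgeR adjusted p = 0.00112), and Elovl2, an elongase of polyunsaturated fatty acids (−0.69 ± 0.11, 0.000506), fell as well. Scd1, the main desaturase of liver, was at 43099, 64365, 63316 and 60306 and 60954, 47072, 48061 and 53582 CPM, and Srebf1, which encodes SREBP1, at 620.0, 579, 496 and 275 and 469, 413, 501 and 441. In both genes the groups overlapped and the test made no call (−0.14 ± 0.14, edgeR adjusted p = 0.594, and −0.11 ± 0.18, 0.772).

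Few genes of fatty acid oxidation were called, except under another scaling. None of the 20 mitochondrial genes was called by edgeR (median 0.00), with 3 at an unadjusted p under 0.05 and 1 called by DESeq2, and of 19 peroxisomal genes 1 fell and none rose. Leaving out CD_vehicle 1 or CD_vehicle 4 called at most 1 mitochondrial gene in each direction. The peroxisomal list had 1 rise and 3 falls without CD_vehicle 1 and 2 falls without CD_vehicle 4. With library totals, 6 mitochondrial genes rose (median 0.22, beside 0.19 for all genes), and 6 peroxisomal genes rose and 1 fell. Ppara itself, the receptor that drives these genes, rose from 69.1, 65.6, 62.0 and 68.2 to 100.4, 132, 114 and 99.8 CPM. All 4 high-fat mice were above the control mice (log2 fold change 0.75 ± 0.10, edgeR adjusted p = 0.000125). Among 10 genes of omega-oxidation, 1 rose and 4 fell: Aldh3a2, which oxidises fatty aldehydes, rose (0.83 ± 0.12, edgeR adjusted p = 0.000224), while the hydroxylases Cyp4f14 (−0.91 ± 0.15, 0.000947) and Cyp4a12a (−1.37 ± 0.24, 0.00126) fell. Without HFD_vehicle 4 the falls of this list numbered 2. Cyp4a12a has near-identical relatives, and reads may be shared between them.

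**Figure D3:**
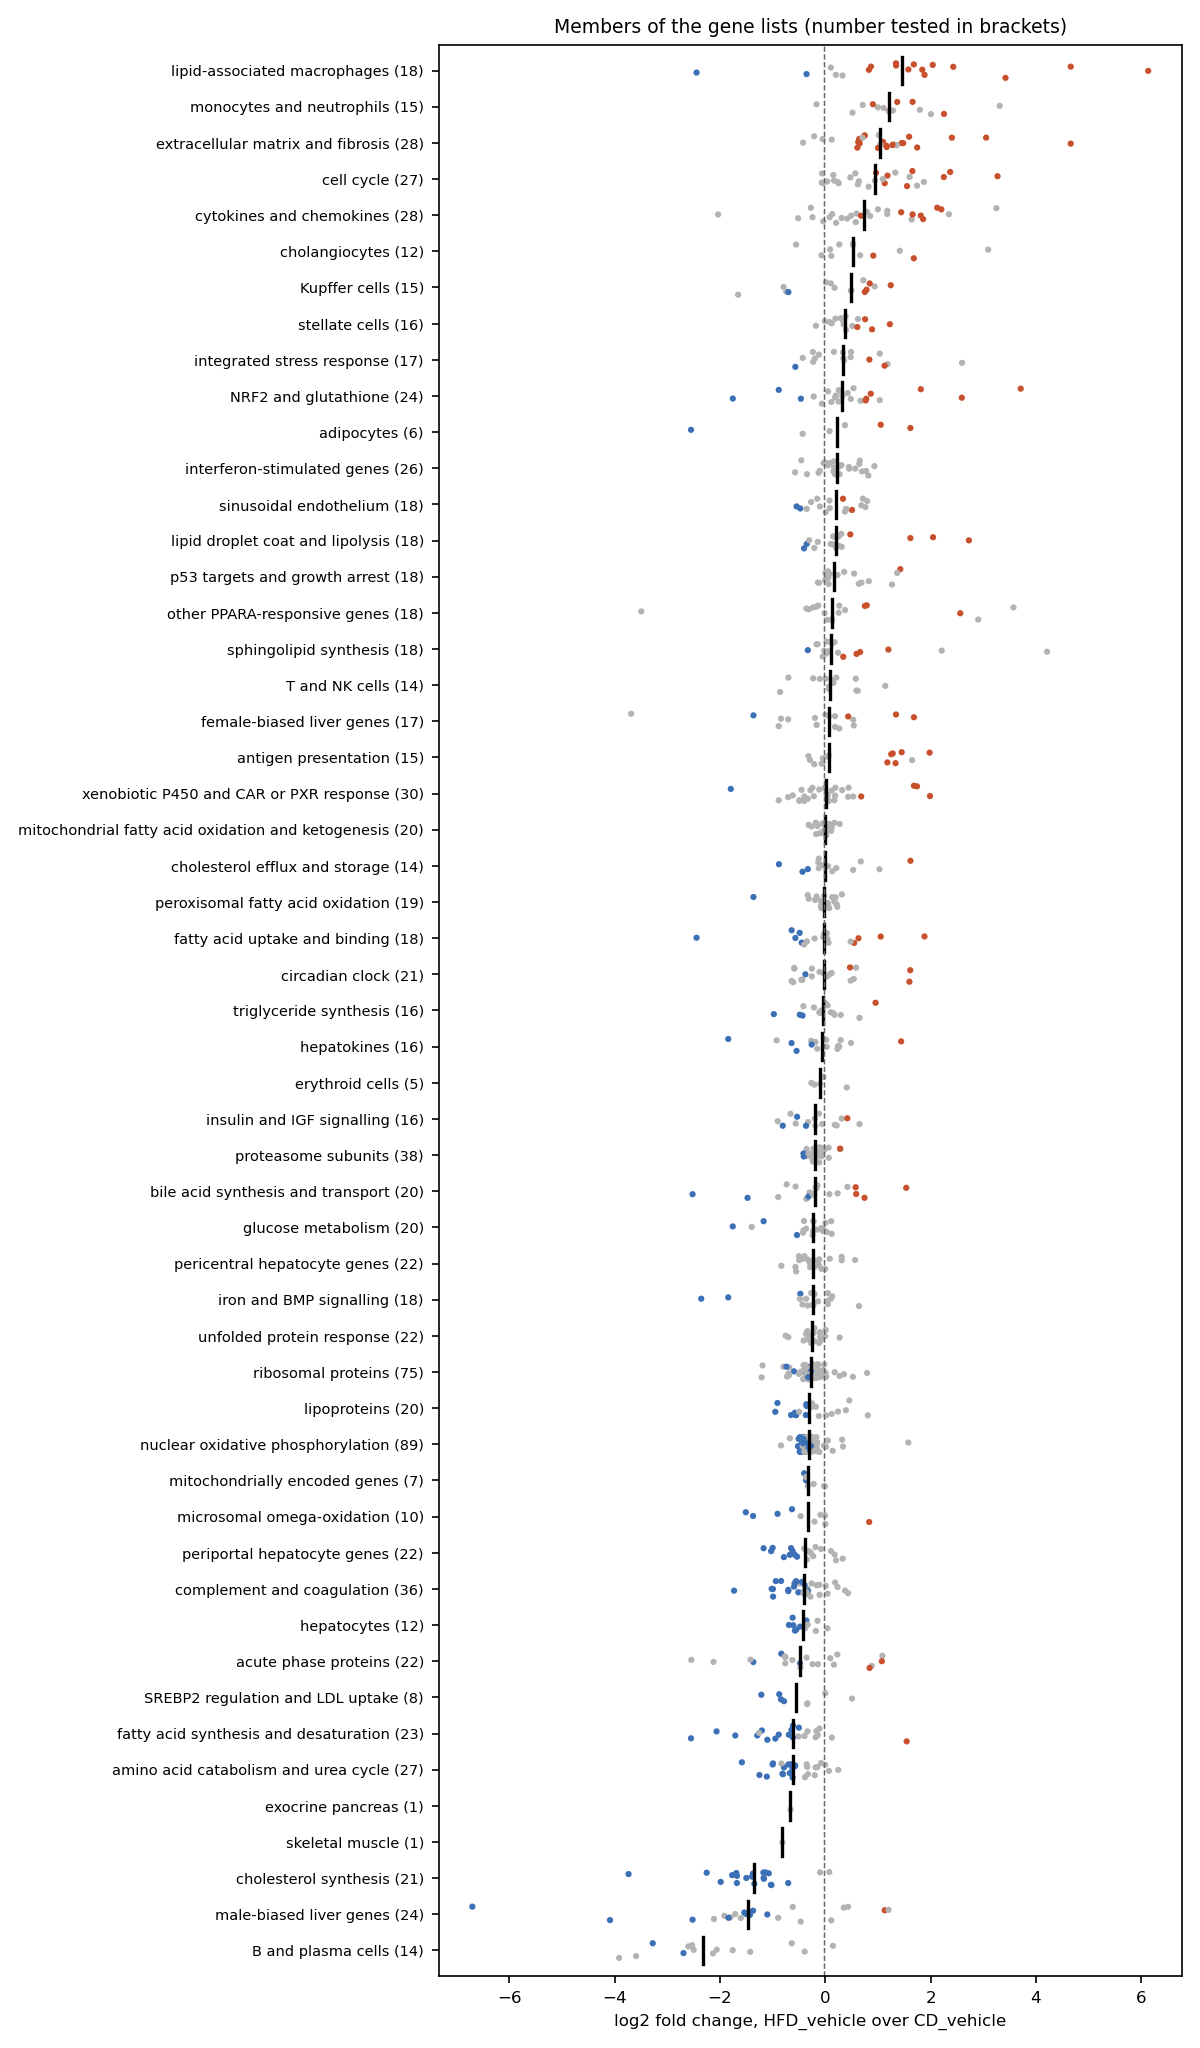
Each point is a tested member of a gene list, with its log2 fold change of HFD_vehicle over CD_vehicle on the x axis, red where called higher, blue where called lower and grey where not called, and a black bar marks the list median. Cholesterol synthesis lies almost wholly to the left in blue and extracellular matrix to the right in red, and the dashed line is the median of all genes, −0.03.

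Markers of lipid-laden macrophages had the highest median change of all lists. Of 18 markers of lipid-associated macrophages, 13 rose and 2 fell, with a median of 1.46. The falls included Fabp5, given above among the uptake genes (log2 fold change −2.445, edgeR adjusted p = 7.06e-05). Without CD_vehicle 1 the counts were 11 and 2, and without CD_vehicle 4 they were 14 and 2. Whether more of these cells or more RNA per cell underlies a rise cannot be told apart in bulk tissue, here and in every list below. Gpnmb (ENSMUSG00000029816.10, chr6:49036546-49070929, plus strand), a glycoprotein of lysosomes in lipid-loaded macrophages, was at 0.0834, 0, 0.281 and 2.18 CPM in the control and 15.9, 42.3, 38.5 and 86.4 in the high-fat mice. It was nearly silent in the first 3 control mice, slightly expressed in CD_vehicle 4 and clearly expressed in every high-fat mouse. The log2 fold change of Gpnmb was 6.13 ± 0.78 (edgeR adjusted p = 0.000125), and 8.52 without CD_vehicle 4. Trem2, a lipid receptor of these cells, was at 0.0417, 0.687, 0.609 and 1.196 and 5.14, 7.91, 5.596 and 8.66 CPM, with no overlap (log2 fold change 3.42 ± 0.59, edgeR adjusted p = 0.00114). Mmp12, the macrophage elastase, was at 0.876, 0.183, 1.31 and 6.96 and 39.5, 50.1, 60.8 and 88.8 CPM. CD_vehicle 4 was again the highest control mouse, and its removal took the log2 fold change from 4.66 to 6.24. Lgals3, a galactose-binding lectin, rose from 6.13, 6.32, 4.96 and 7.18 to 21.2, 28.5, 30.9 and 52.1 CPM, and HFD_vehicle 4 was the highest of all (log2 fold change 2.43 ± 0.32, edgeR adjusted p = 0.00016). Cd68, a lysosomal protein of macrophages in general, rose too (1.58 ± 0.28, edgeR adjusted p = 0.00149).

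Markers of resident and arriving myeloid cells changed in part. Of 15 Kupffer cell markers, 4 rose and 1 fell, and the count of rises ran from 1 to 6 when single vehicle mice were left out, at 1 or 2 without CD_vehicle 1, 2 or 3 or HFD_vehicle 2, 3 or 4 and highest without CD_vehicle 4. Log2 fold changes in this list ran from −1.66 to 1.24, so the largest fall exceeded the largest rise in size. Clec4f, the lectin that defines these cells, was at 52.3, 49.4, 56.7 and 74.9 and 60.9, 42.7, 63.4 and 68.5 CPM, and the groups overlapped (log2 fold change 0.01 ± 0.20, edgeR adjusted p = 0.984). Cd5l, a secreted protein of tissue macrophages, rose from 66.6, 49.5, 63.6 and 87.8 to 131, 126, 160.5 and 216 CPM (log2 fold change 1.24 ± 0.28, edgeR adjusted p = 0.00806). Of 15 markers of monocytes and neutrophils, 5 rose and none fell, with 8 without CD_vehicle 4 and 2 or 3 without any 1 of the other vehicle mice. Ccr2, the receptor that brings monocytes into tissue, was at 1.54, 3.43, 2.06 and 1.75 and 5.95, 8.62, 7.19 and 6.01 CPM, with no overlap (log2 fold change 1.66 ± 0.30, edgeR adjusted p = 0.00145). Its ligand gene Ccl2 rose as well, from 0.667, 1.33, 1.78 and 1.28 to 4.67, 4.44, 5.06 and 4.18 CPM (log2 fold change 1.86 ± 0.40, edgeR adjusted p = 0.00577). In the list of cytokines and chemokines, 7 of 28 rose and none fell, and 15 rose without CD_vehicle 4. Il1rn, the antagonist of the interleukin-1 receptor, rose from 3.002, 1.92, 2.06 and 5.25 to 13.8, 12.6, 13.5 and 16.9 CPM (log2 fold change 2.21 ± 0.25, edgeR adjusted p = 3.07e-05). The chemokine Ccl6 (1.81 ± 0.25, edgeR adjusted p = 0.000205) and the adhesion receptor Vcam1 (1.44 ± 0.29, 0.00333) rose, and none of 26 interferon-stimulated genes was called by edgeR or DESeq2. Of these, 6 had an unadjusted p under 0.05, and 4 were called higher without CD_vehicle 4.

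Extracellular matrix genes rose broadly. Of 28 tested, 20 rose and none fell, with a median of 1.03. The count was 17 without CD_vehicle 1, 21 without CD_vehicle 4 and 15 to 21 over all fits that left out 1 vehicle mouse. Col1a1, a chain of the main fibrous collagen, was at 10.3, 8.84, 10.5 and 26.6 CPM in the control and 37.5, 57.7, 41.1 and 52.4 in the high-fat mice. CD_vehicle 4 was well above the other control mice, yet below every high-fat mouse (log2 fold change 1.75 ± 0.28, edgeR adjusted p = 0.000603). Col3a1 showed the same layout, at 21.8, 28.7, 24.1 and 55.3 and 76.1, 95.2, 89.3 and 102 CPM (log2 fold change 1.48 ± 0.21, edgeR adjusted p = 0.000309). Col12a1, a collagen that decorates fibrils, rose without any control mouse standing apart (3.84, 2.66, 3.47 and 3.89 against 6.64, 10.6, 12.9 and 11.9 CPM, log2 fold change 1.59 ± 0.27). Mmp13, a collagenase, went from 0.375, 0.5495, 0.4215 and 0.897 to 2.94, 4.85, 6.20 and 4.90 CPM (log2 fold change 3.05 ± 0.68, edgeR adjusted p = 0.00666). Of 16 markers of stellate cells, the collagen-forming cells of liver, 4 rose and none fell, with 7 rises without CD_vehicle 4 and 6 with library totals. They were the growth factor receptors Pdgfrb (0.89 ± 0.18, edgeR adjusted p = 0.00322) and Pdgfra (1.23 ± 0.25, 0.00358), the globin Cygb (0.76 ± 0.16, 0.00482) and the proteoglycan Dcn (0.61 ± 0.13, 0.00637). Spp1, a matrix cytokine of macrophages and bile duct cells, rose from 41.1, 39.6, 35.0 and 81.4 to 132, 160.3, 111 and 228.7 CPM (log2 fold change 1.68 ± 0.26, edgeR adjusted p = 0.000506), and Krt8, a keratin of hepatocytes and duct cells, from 105, 79.9, 83.2 and 92.8 to 167, 183, 126 and 202 (log2 fold change 0.91 ± 0.13, edgeR adjusted p = 0.000271).

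Some genes of dividing cells rose from very low levels. Of 27 cell cycle genes, 8 rose and none fell, and the count was 5 without CD_vehicle 1, 12 without CD_vehicle 4, 3 or 4 without CD_vehicle 2, CD_vehicle 3, HFD_vehicle 1, HFD_vehicle 2 or HFD_vehicle 4, and 13 with library totals. Ccnb2, a mitotic cyclin, was at 0.751, 0.321, 0.141 and 1.28 and 3.63, 4.18, 2.13 and 3.14 CPM, and Bub1b, a mitotic checkpoint kinase, at 0.917, 0.366, 0.656 and 0.897 and 2.28, 2.91, 1.53 and 2.26. In both the groups did not overlap (log2 fold changes 2.37 ± 0.46 and 1.65 ± 0.38). Which cells divide was not measured. Ccnd1, the cyclin of hepatocyte growth, was not called (50.5, 23.6, 27.9 and 74.5 against 44.0, 45.8, 50.7 and 70.4 CPM).

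Many genes of hepatocyte products were lower. Of 12 hepatocyte markers, 7 fell and none rose (median −0.43). The count was 4 to 9 when single vehicle mice were left out, lowest without CD_vehicle 2, CD_vehicle 3, HFD_vehicle 1, HFD_vehicle 2 or HFD_vehicle 4 and highest without CD_vehicle 4, and with library totals as the scaling it was 4. Of 36 genes of complement and coagulation, 19 fell and none rose (median −0.40), with 13 lower under library totals. F10, coagulation factor X, went from 380.4 ± 33.0 to 233.8 ± 18.9 CPM (mean ± SD, n = 4; log2 fold change −0.70 ± 0.10, edgeR adjusted p = 0.000257), and F7, factor VII, from 67.1 ± 14.6 to 35.0 ± 2.06 (−0.94 ± 0.16, 0.00108). The antithrombin gene Serpinc1 (−0.51 ± 0.08, 0.000589) and the lectin Mbl2 (−0.84 ± 0.15, 0.00157) fell too. Among 20 genes of lipoprotein assembly, 9 fell and none rose, with 4 lower and 3 higher under library totals. Apom, a carrier of sphingosine-1-phosphate on HDL, was at 101, 87.3, 87.1 and 89.5 and 53.9, 47.3, 43.9 and 43.7 CPM. Every high-fat mouse was below every control mouse by a wide margin (log2 fold change −0.95 ± 0.11, edgeR adjusted p = 4.18e-05). Tm6sf2, which is needed to load lipid onto VLDL, was at 41.8, 44.3, 48.7 and 45.4 and 26.1, 18.3, 27.3 and 24.4 CPM, again without overlap (log2 fold change −0.91 ± 0.12, edgeR adjusted p = 0.000126).

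RNA of amino acid metabolism genes was lower in more than 1 branch. Of 27 genes of amino acid breakdown and the urea cycle, 15 fell and none rose, with a median of −0.62, and 12 were lower under library totals. Got1, the cytosolic aspartate aminotransferase, was at 241, 346, 461 and 305 and 104, 92.9, 134 and 120.2 CPM. The high-fat mice held less than the lowest control mouse (log2 fold change −1.58 ± 0.25, edgeR adjusted p = 0.000542). Gnmt, a methyltransferase that sets the supply of methyl groups, was at 1277, 1628, 1480.4 and 1112 and 701, 576, 619.6 and 649.9 CPM, with no overlap (log2 fold change −1.11 ± 0.15, edgeR adjusted p = 0.000209). Agxt, which detoxifies glyoxylate, was at 239, 270.0, 241 and 120.5 and 89.4, 82.3, 95.8 and 98.3 CPM, and CD_vehicle 4 was the lowest control mouse (log2 fold change −1.25 ± 0.18, edgeR adjusted p = 0.000257). Tat, the tyrosine aminotransferase (−0.99 ± 0.15, edgeR adjusted p = 0.000499), and Arg1, the arginase that ends the urea cycle (−0.67 ± 0.12, 0.00165), also fell. Of 22 genes of periportal hepatocytes 10 fell and of 22 of pericentral hepatocytes none was called by edgeR, with 6 at an unadjusted p under 0.05 and 1 called by DESeq2. Leaving out CD_vehicle 2 took the periportal count to 5 and leaving out CD_vehicle 3, HFD_vehicle 1 or HFD_vehicle 4 to 6, and leaving out CD_vehicle 4 gave 4 lower and 1 higher pericentral genes. The difference between the zones was not tested.

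The count for oxidative phosphorylation depended on the scaling. Of 89 nuclear-encoded subunits, 33 fell and none rose (median −0.32), but with library totals 1 fell and the median was −0.10, beside 0.19 for all genes. A change of scaling moves all genes by nearly the same amount. The distance of the list from the median of all genes therefore stays alike by construction and is no separate evidence. Single mice moved the count of falls over 17 to 46, at 17 to 21 without CD_vehicle 3, HFD_vehicle 2 or HFD_vehicle 3 and highest without CD_vehicle 1. Cox7b, a subunit of cytochrome c oxidase, was at 122, 158, 140.3 and 157 and 105, 94.6, 102 and 102 CPM, without overlap (log2 fold change −0.52 ± 0.10, edgeR adjusted p = 0.00194). Ribosomal protein genes behaved alike, with 9 of 75 lower, 1 under library totals, and 4 to 14 when single vehicle mice were left out, lowest without HFD_vehicle 3 and highest without CD_vehicle 1.

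Detoxification and bile acid genes changed by member. Cyp3a11 (ENSMUSG00000056035.8, chr5:145854426-145879964, minus strand), a major drug-oxidising P450 of mouse liver, was at 951, 1161, 1041 and 1267 CPM in the control and 2679, 3454, 4687 and 3966 in the high-fat mice. The lowest high-fat mouse was far above the highest control mouse (log2 fold change 1.74 ± 0.13, edgeR adjusted p = 5.09e-07). The gene belongs to a family of close relatives, among which reads may be shared. Of 30 genes of this list, 4 rose and 1 fell, and 6 rose and 6 fell without CD_vehicle 4. Only 2 rose without CD_vehicle 1, CD_vehicle 2, HFD_vehicle 2 or HFD_vehicle 3, and 7 rose with library totals. Of 24 genes of the antioxidant response, 6 rose and 3 fell, and with library totals 15 rose and 2 fell. Ephx1, an epoxide hydrolase, was at 315, 336, 392 and 411 and 618, 589.7, 682 and 584 CPM and Srxn1, a reductase of peroxiredoxins, at 64.3, 45.2, 69.8 and 84.2 and 127, 116, 118 and 118, both without overlap (log2 fold changes 0.77 ± 0.09 and 0.86 ± 0.14). G6pdx, the first enzyme of the pentose phosphate path, fell (−1.76 ± 0.34, edgeR adjusted p = 0.00243). Among bile acid genes, Slc10a1, the uptake transporter of bile salts from blood, was at 838, 1099, 1098 and 835 and 417, 349, 372 and 254 CPM. The high-fat mice were all below the control mice by a wide gap (log2 fold change −1.48 ± 0.21, edgeR adjusted p = 0.000293). Abcb4, which exports phospholipid into bile, rose from 220.5, 197, 217.98 and 208 to 362, 374, 327 and 350.2 CPM (log2 fold change 0.75 ± 0.08, edgeR adjusted p = 2.31e-05), and Abcc3, an exporter of bile acids back to blood, rose by 0.59 ± 0.10 (edgeR adjusted p = 0.000714). Cyp7a1, which starts the main route from cholesterol to bile acids, was not called (7.297, 9.16, 12.5 and 14.4 against 10.5, 9.90, 33.6 and 4.71 CPM).

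Genes known to be more active in male liver included the largest fall of a named gene. Of 24 tested, 11 fell and 1 rose, with a median of −1.47. Leaving out single mice gave 6 to 15 falls, the lowest without HFD_vehicle 4 and the highest without CD_vehicle 4. Hsd3b5 (ENSMUSG00000038092.6, chr3:98618634-98630252, minus strand), a hydroxysteroid dehydrogenase, was at 34.6, 75.8, 52.6 and 1.45 CPM in the control and 0.695, 0.510, 0.133 and 0.153 in the high-fat mice. The first 3 control mice were high, while CD_vehicle 4 was little above the highest high-fat mouse (log2 fold change −6.70 ± 0.87, edgeR adjusted p = 0.000126). Slco1a1, an organic anion transporter, was at 212, 352, 288 and 62.3 and 83.3, 57.2, 11.1 and 7.01 CPM, and CD_vehicle 4 lay inside the high-fat range (log2 fold change −2.52 ± 0.57, edgeR adjusted p = 0.00789). Nudt7, a peroxisomal hydrolase of CoA, was at 318, 293, 318 and 194 and 130.2, 116, 94.9 and 74.8 CPM and Mup21, a urinary protein gene, at 52.4, 83.6, 56.3 and 37.4 and 26.5, 15.0, 12.2 and 10.2. Neither overlapped (log2 fold changes −1.43 ± 0.18 and −1.84 ± 0.26). Mup20, of the same family, rose from 407, 437, 455 and 494 to 1250.4, 1039, 596 and 1033 CPM (log2 fold change 1.13 ± 0.23, edgeR adjusted p = 0.0036). Many Mup genes are near-identical copies, so reads may be shared within the family. How far this touches Mup20 and Mup21 was not measured. Of 17 genes known to be higher in female liver, 3 rose and 1 fell, and 1 rose without CD_vehicle 1, CD_vehicle 2, HFD_vehicle 2 or HFD_vehicle 3. Sex was not used to form the groups, and the labels do not give it.

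Signals between liver and body changed in a few genes. Hamp, which encodes the iron hormone hepcidin, was at 1147, 1033, 679 and 382 CPM in the control and 246, 177, 289 and 191 in the high-fat mice, and the groups did not overlap (log2 fold change −1.84 ± 0.44, edgeR adjusted p = 0.0113). Its copy Hamp2 fell too (−2.36 ± 0.52, edgeR adjusted p = 0.00648), although CD_vehicle 1, at 17.2, 144, 105 and 93.5 CPM over the control mice, lay with the high-fat mice at 10.97, 10.9, 22.3 and 26.2. Tsku, a secreted protein named as a hepatokine, rose from 54.0, 34.4, 55.5 and 81.4 to 141, 145, 200.1 and 126 CPM (log2 fold change 1.44 ± 0.24, edgeR adjusted p = 0.000852). Ahsg, which encodes fetuin-A, fell (−0.55 ± 0.09, edgeR adjusted p = 0.000603), and Fgf21, the fasting hormone of liver, was not called (5.55, 2.93, 5.01 and 13.4 against 8.92, 9.23, 8.26 and 6.09 CPM). G6pc, the last step of glucose release, went from 816, 775, 485 and 327 to 272, 293, 319.9 and 182 CPM. CD_vehicle 4 came close to HFD_vehicle 3, the highest high-fat mouse (log2 fold change −1.17 ± 0.25, edgeR adjusted p = 0.00491).

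In 3 lists the result turned on a single control mouse, and the median of the T and NK cell markers did so too. The acute phase list had a median of −0.48 with 2 genes higher and 3 lower, and without CD_vehicle 1 a median of 0.37 with 8 higher and 2 lower. Saa1, serum amyloid A, was at 1255, 32.1, 20.7 and 37.2 CPM in the control and 69.6, 92.4, 67.8 and 79.1 in the high-fat mice, so CD_vehicle 1 was far above all and the other control mice were below every high-fat mouse. The log2 fold change of Saa1 was −2.12 (edgeR adjusted p = 0.144) with CD_vehicle 1 and 1.36 (adjusted p = 0.0143) without it. Lcn2, lipocalin-2, repeated this, at 475, 12.3, 12.3 and 21.6 and 86.0, 122, 93.1 and 140.0 CPM, with log2 fold changes of −0.24 (edgeR adjusted p = 0.902) and, without CD_vehicle 1, 2.84 (adjusted p = 0.000116). None of 22 genes of the unfolded protein response was called by edgeR or DESeq2, 4 had an unadjusted p under 0.05, and 2 were called higher without CD_vehicle 1. Hspa5, the chaperone BiP, was at 3089, 897, 1178 and 1049 and 1192, 1209, 1247 and 1179 CPM, where only CD_vehicle 1 stood out. B and plasma cell markers had a median of −2.32 with 2 of 14 called lower, and 0.52 with none called without CD_vehicle 4. None was called either without HFD_vehicle 1, 2 or 3, and 3 to 5 without CD_vehicle 1, 2 or 3. Igkc, the kappa light chain, was at 10.9, 11.1, 5.81 and 279.7 and 12.1, 17.2, 12.6 and 11.6 CPM, and CD_vehicle 4 alone was high. In that mouse markers of T and NK cells were also the highest of the controls in 12 of 14. None of them was called in the comparison of diets by edgeR or DESeq2 or had an unadjusted p under 0.05, and none was called without that mouse. Their median log2 fold change was 0.10 with all mice and 1.15 without CD_vehicle 4. The part of this mouse's lymphocyte markers in its macrophage and matrix levels was not tested.

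**Figure D4:**
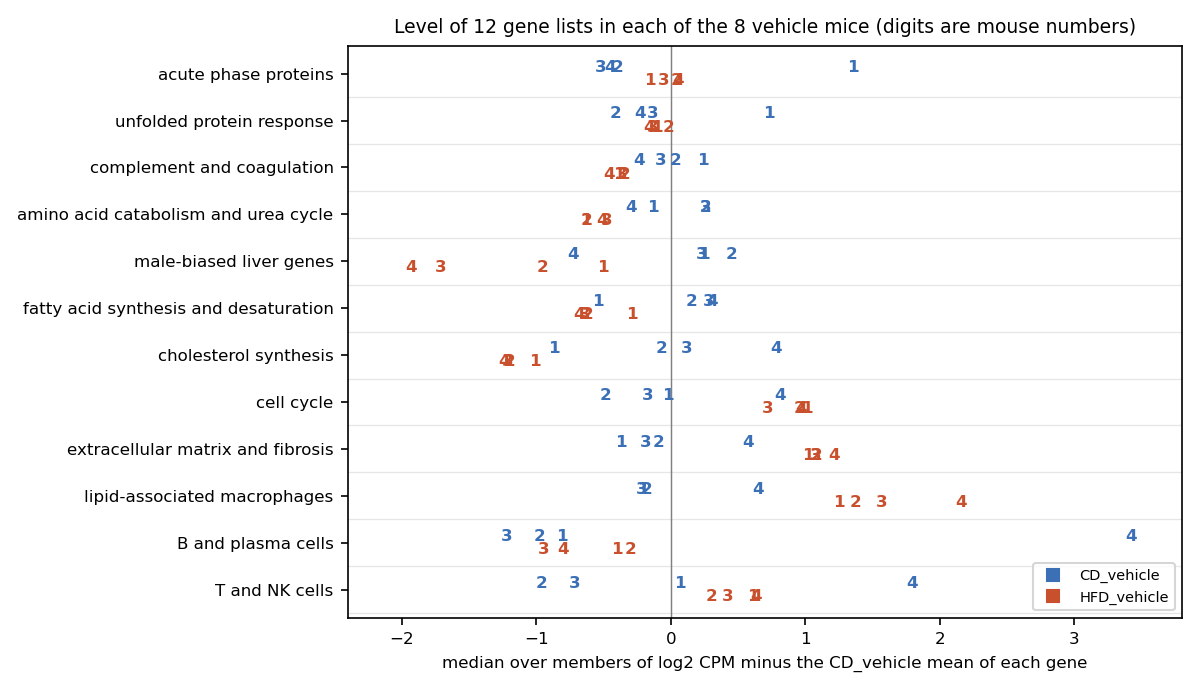
Level of 12 gene lists in each vehicle mouse, as the median over members of log2 CPM minus the control mean of each gene, with digits for the mouse number, blue for CD_vehicle and red for HFD_vehicle. CD_vehicle 1 stands to the right in the acute phase and unfolded protein response lists, and CD_vehicle 4 in the B and plasma cell and the T and NK cell lists, while matrix and macrophage lists separate the diets.

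Several of the largest changes lay outside these lists. The largest rises and falls were picked among called genes whose groups did not overlap, so separation of the groups was fixed by that choice. Genes near 0 in the control mice could pass the count filter only with counts in other groups. Limch1 (ENSMUSG00000037736.18, chr5:66745827-67057158, plus strand), which encodes an actin-binding regulator of myosin, was at 0.208, 1.099, 0.375 and 0.555 CPM in the control and 10.4, 14.8, 9.99 and 12.8 in the high-fat mice. It had the smallest adjusted p of the comparison among the named genes (log2 fold change 4.42 ± 0.32, edgeR adjusted p = 3.64e-07). Adgrv1, a very large adhesion receptor, was at 3.84, 2.75, 3.18 and 1.84 and 41.2, 51.7, 24.7 and 36.6 CPM, a clear gap with no control mouse standing apart (log2 fold change 3.73 ± 0.36, edgeR adjusted p = 5.67e-06). Elovl7, a fatty acid elongase, went from 0.167, 0.183, 0.656 and 0.769 to 3.13, 4.999, 3.53 and 5.82 CPM, and Plat, the tissue plasminogen activator, from 0.125, 0.229, 0.515 and 0.427 to 2.70, 3.88, 1.73 and 2.72. Both rose from near 0 in every control mouse (log2 fold changes 3.29 ± 0.57 and 3.08 ± 0.58). Sdcbp2, a syntenin, had counts in 1 of the 4 control mice and in all 4 high-fat mice (0, 0, 0.656 and 0 against 4.21, 3.98, 2.33 and 3.37 CPM). Gsta1, a glutathione transferase with close relatives, is a member of the antioxidant response list above. It went from 0.208, 0, 0.468 and 0 to 1.24, 1.58, 2.93 and 3.29 CPM. Among the falls, Acpp, prostatic acid phosphatase, was at 46.6, 37.8, 46.0 and 32.7 CPM in the control and 3.71, 6.48, 6.80 and 2.49 in the high-fat mice (log2 fold change −3.09 ± 0.34, edgeR adjusted p = 2.71e-05). Srgap3, a GTPase-activating protein, was at 8.34, 15.1, 8.85 and 3.25 and 0.425, 0.408, 0.666 and 0.498 CPM (log2 fold change −4.16 ± 0.65, edgeR adjusted p = 0.000569). In both genes every high-fat mouse was below every control mouse, and CD_vehicle 4 was the lowest control. Adcy1, an adenylate cyclase, was at 7.42, 10.2, 11.7 and 31.9 and 3.79, 2.24, 1.599 and 4.41 CPM, where CD_vehicle 4 was instead the highest control (log2 fold change −2.31 ± 0.37, and −1.66 without it). The P450 genes Cyp2c40 and Cyp2c69 fell from 6.02 ± 2.40 to 0.809 ± 0.958 and from 2.85 ± 1.65 to 0.277 ± 0.356 CPM (mean ± SD, n = 4), and both have close relatives among which reads may be shared.

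The same diets were compared in the 8 mice given PFOA, which share no mouse with the vehicle comparison. There 9 of 14998 genes were called, 7 higher and 2 lower, 0.06% (edgeR, adjusted p under 0.05), and 1665 had an unadjusted p under 0.05, with 99 higher and 80 lower by DESeq2. Of the 779 genes higher under vehicle, 655 (84.1%) had a positive log2 fold change under PFOA, with a median of 0.99 under vehicle and 0.29 under PFOA. Of the 782 lower under vehicle, 654 (83.6%) had a negative one, with medians of −0.55 and −0.15. Over all genes 50.4% were positive. Genes called under vehicle are selected for large vehicle changes, which favours smaller medians in other mice. The smaller medians under PFOA therefore do not measure a weaker diet change there. The difference of the diet change itself passed the test for 31 genes, 0.207% of those tested. Leaving out CD_vehicle 1 gave 107 such genes and CD_vehicle 4 359. The number was 13 to 19 without CD_vehicle 2 or 3, HFD_vehicle 2, 3 or 4, HFD_PFOA 2, 3 or 4, or CD_PFOA 2 or 4, lowest without HFD_vehicle 4 or HFD_PFOA 4. The 7 higher and 2 lower genes under PFOA became 9 and 13 without CD_PFOA 1, 3 and 1 without CD_PFOA 2, 1 and 1 without HFD_PFOA 2 or CD_PFOA 3, and 0 and 1 without CD_PFOA 4 or HFD_PFOA 4. The diet change under PFOA minus that under vehicle was −1.49 ± 0.19 for Cyp3a11 (edgeR adjusted p = 0.00244), −3.07 ± 0.41 for Limch1 (0.00328), −1.63 ± 0.24 for Lpl (0.00971) and −2.38 ± 0.39 for Cidec (0.016), all log2 values with SE. Fabp5 differed the other way, by 2.58 ± 0.39 (edgeR adjusted p = 0.00996). For Gpnmb the diet change under PFOA was 2.26 ± 0.60 (edgeR adjusted p = 0.146), and the difference from vehicle did not pass the test (0.109). Hamp changed by −1.64 ± 0.44 under PFOA, near its value under vehicle, without passing the test there (edgeR adjusted p = 0.148).

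**Figure D5:**
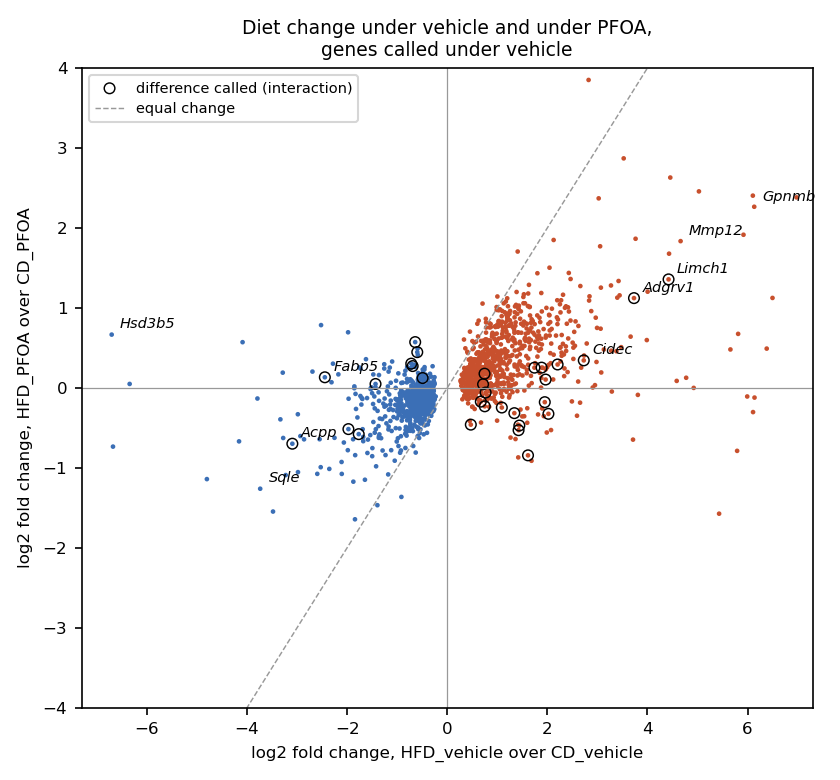
Each point is a gene called under vehicle (1561 in all), with its log2 fold change by diet under vehicle on the x axis and under PFOA on the y axis. Most points lie in the upper right and lower left fields but flatter than the dashed line of equal change, and circles mark genes whose diet change differed between vehicle and PFOA by the interaction test. The genes were selected by their vehicle change, which by itself favours a flatter layout.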

How the data were processed

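Whole-liver RNA libraries (non-stranded, per the labels' protocols) gave 1 deposited table of raw counts per gene, whole numbers for 53465 genes and 16 mice. Per the submitters' processing notes, the authors used STAR 2.5.2b, featureCounts of Subread 1.6.0, Trimmomatic 0.33 and bcl2fastq 2.20.0.422 with GRCm38 (mm10). The sources used here give neither the annotation release nor how reads shared between close relatives were handled. Without strand, overlapping genes cannot be told apart. Per the series' design, mice are the biological replicates. Groups came from the treatment label, and replicate numbers only follow record order. No 2 libraries of the same vehicle group agreed within sampling noise.

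From the counts, filterByExpr of edgeR 4.0.16 (R 4.3.3) kept 14998 genes, which held 99.9% of counts. All 16 libraries entered 1 quasi-likelihood fit with TMM factors, a mean per group and 12 residual degrees of freedom (biological coefficient of variation 0.242). CD_PFOA and HFD_PFOA mice thus contributed to the spread, and also to the count filter and the TMM factors. Benjamini-Hochberg adjustment ran over all tested genes, with calls under 0.05. SE was computed as the size of the log2 fold change divided by the root of F. CPM are counts per 1e+06 of the TMM-scaled library, and they do not correct for gene length. Alternatives were only the 8 vehicle mice, DESeq2 1.42.0, library totals, DESeq2 size factors, no filter, a 2-fold minimum and each vehicle mouse left out. Leaving out each PFOA mouse was added after the data were seen. The calling code was tested on simulated counts.

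Named genes were the 12 largest rises and 12 largest falls with no overlap and a mean of at least 1 CPM, up to 4 members of each list by p, and fixed index genes. For those largest changes the lack of overlap was thus part of the choice and no result. Some genes that this rule names are not reported here. Exceptions are said to be named after their values were seen, and Mvd is shown for its promoter. The comparison, the lists and the members were chosen with earlier results of these data known, so a list's direction is no independent evidence. Lists were described by counts and medians, without a set test. Gene positions are from GENCODE M21, promoter windows from RefSeq, matched by symbol.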

Additional observations from a re-analysis of the deposited data

Results flagged for a closer look

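In 34 of 338 groups of 4 values (named genes and list levels, by diet), 1 mouse lay far from the other 3 by Dixon's test at 95%. For independent normal values chance gives this in about 1 group in 20. These groups are not independent, because all come from the same vehicle mice and the lists hold named genes. The count is therefore no test of an excess over chance. CD_vehicle 4 was that mouse in 15, CD_vehicle 1 in 7 and a high-fat mouse in 11. The causes were not tested.

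CD_vehicle 4 was high at 2.18 CPM for Gpnmb, 6.96 for Mmp12, 54.2 for Lpl, 81.4 for Spp1, 12.2 for Ccl6 and 26.6 for Col1a1, genes of macrophages and matrix that also rose on the high-fat diet. It was also high for Sqle (137), Igkc (279.7) and Cyp2c69 (5.30). Its list levels (median log2 difference from the control mean) stood out at 3.42 for B and plasma cells, 0.65 for lipid-associated macrophages and 0.53 for cytokines and chemokines. Smaller gaps were 0.22 for other PPARA-responsive genes, 0.12 for ribosomal proteins and 0.10 for cholangiocytes.

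CD_vehicle 1 stood out at 1255 CPM for Saa1, 475 for Lcn2 and 3089 for Hspa5, all high, and at 183 for Acss2 and 69419 for Alb, both low. Its acute phase level was 1.35 and its level of nuclear oxidative phosphorylation genes −0.17. In CD_vehicle 3 the low gene Sdcbp2 had 0.656 CPM and 0 in the other control mice.

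Among high-fat mice, HFD_vehicle 1 lay apart for Pmvk (22.2 CPM), Sqle (4.17) and Srxn1 (127), which were high, and Ahsg (3483), which was low. Its levels of fatty acid synthesis (−0.29) and of periportal genes (−0.58) also lay apart. HFD_vehicle 4 did so for Lpl (176 CPM, high), F10 (206, low) and the bile acid list (−0.32). HFD_vehicle 2 was low for Fabp5 (1.89 CPM) and HFD_vehicle 3 stood apart for Ggps1 (6.33 CPM).

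The diet change differed between PFOA and vehicle, by the interaction test of edgeR at adjusted p under 0.05, for 16 of the genes named. As log2 differences, PFOA minus vehicle, they were lower for Limch1 (−3.07), Adgrv1 (−2.61), Cidec (−2.38), Il1rn (−1.91), Tsku (−1.91), Lpl (−1.63), Cyp3a11 (−1.49), Ephx1 (−0.83), Abcb4 (−0.57), Usp2 (−2.46) and Gadd45a (−1.95). They were higher for Fabp5 (2.58), Acpp (2.40), Nudt7 (1.48), Tm7sf2 (1.19) and Elovl2 (0.96), all of which fell under vehicle. The vehicle change is subtracted in this difference, and the genes were named largely for their vehicle change. The choice of genes therefore favours a difference opposite in sign to the vehicle change.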

How the results depend on the processing

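Of 103 named genes called, 102 were called in the same direction in each of the 8 fits that left out 1 vehicle mouse, 103 without CD_vehicle 1 and 4 together, 103 by DESeq2 and 100 with only the 8 vehicle mice. Apart from index genes and stated exceptions, they were chosen by p or size of change in this same comparison. That their calls were kept was therefore largely fixed in advance. Of all 779 and 782 calls, 468 and 393 were kept with only the 8 vehicle mice, and 588 and 652 without CD_vehicle 1. Counts of genes moved more. The 779 higher and 782 lower genes became 490 and 406 with only the vehicle mice, 2052 and 288 with library totals, 1295 and 1106 without CD_vehicle 1 and 4 together, and 382 and 128 at a minimum of 2-fold, the last by construction. Leaving out single mice gave 454 (without HFD_vehicle 4) to 1231 (without CD_vehicle 4) higher and 444 to 1057 lower. Under PFOA the diet called 7 higher and 2 lower genes, which were 99 and 80 by DESeq2, 142 and 83 without the filter and 11 and 1 with library totals, and 0 to 9 and 1 to 13 when single mice were left out. The 31 genes whose diet change differed became 223 by DESeq2, 290 without the filter and 662 without CD_vehicle 1 and 4 together, and 13 to 359 when single mice were left out. Saa1 and Lcn2 turned to rises without CD_vehicle 1 (1.36 and 2.84 on the log2 scale) and without CD_vehicle 1 and 4 together (1.54 and 3.16), and over all fits leaving out 1 mouse ran from −2.51 to 1.36 and from −0.61 to 2.84. Of 1621 gene values under the alternatives, 14 changed sign without a call on either side and were counted as kept. Of 742 list medians, 66 moved by more than the SD between mice. Beyond these shifts the causes were not tested. For low genes such as Gsta1 and the cell cycle genes, depth limits how precisely the size of a change is known. No paired analysis was possible because the labels give mice no replicate numbers and tie none together.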

Other observations

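Other gene lists changed in a few members each, against the 5.19% of genes called higher and 5.21% lower. Of 15 antigen presentation genes, 6 rose and none fell. H2-DMb1, a part of the complex that loads peptide onto class II molecules, was at 1.63, 0.458, 2.72 and 2.48 CPM in the control and 5.52, 5.30, 8.26 and 9.73 in the high-fat mice (log2 fold change 1.98 ± 0.42, edgeR adjusted p = 0.0056). Its partner H2-DMa rose by 1.45 ± 0.33 (adjusted p = 0.00742). The count was 2 without CD_vehicle 2, CD_vehicle 3 or HFD_vehicle 4 and 3 without CD_vehicle 1 or HFD_vehicle 2. Of 18 sphingolipid genes 4 rose and 1 fell, among them Smpd3, a sphingomyelinase, from 10.8, 6.37, 5.39 and 11.02 to 14.8, 25.9, 15.1 and 21.4 CPM (log2 fold change 1.199 ± 0.23, edgeR adjusted p = 0.00232), and 2 rose without CD_vehicle 1, HFD_vehicle 2 or HFD_vehicle 4. Of 21 clock genes 3 rose and 1 fell, with 1 and 0 without HFD_vehicle 3, 4 and 4 without CD_vehicle 4, no fall without CD_vehicle 1, 2 or 3 or HFD_vehicle 2 or 4, and 7 and 0 with library totals as the scaling. Usp2, a deubiquitinase with a daily rhythm, was at 4.63, 3.94, 2.25 and 5.13 and 7.76, 8.98, 20.6 and 12.03 CPM, without overlap (log2 fold change 1.61 ± 0.31, edgeR adjusted p = 0.00268), while Per2 was not called (16.9, 15.3, 23.5 and 22.6 against 17.1, 18.7, 15.99 and 13.8 CPM). The labels do not give the hour at which livers were taken.

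In the integrated stress response list, 2 of 17 genes rose and 1 fell, and the fall was in Atf4, its central factor (130.1, 105, 121 and 125 against 81.6, 82.3, 83.9 and 77.0 CPM, log2 fold change −0.57 ± 0.08, edgeR adjusted p = 0.000263). Of 18 p53 targets 1 rose, Gadd45a (1.43 ± 0.31, edgeR adjusted p = 0.00592), a count near the 5.19% of all tested genes called higher. Of 18 markers of sinusoidal endothelium, 2 rose and 2 fell: Pecam1, a marker of endothelium in general, rose (0.51 ± 0.11, edgeR adjusted p = 0.00609), and Clec4g, a lectin of the sinusoids, fell (−0.54 ± 0.12, 0.00527). Of 38 proteasome subunits 1 rose and 3 fell, counts that are also near the shares of all tested genes. Without CD_vehicle 4 the rises numbered 5 in the stress response, 4 in the p53 and 6 in the endothelial list, and without HFD_vehicle 2 none rose in the first of these. With library totals the rises numbered 5, 5 and 6, and no endothelial or proteasome gene fell.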
